A study of Homo sapiens with 6 samples.

Results

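Mediator is the large multiprotein coactivator that carries signals from DNA-bound transcription factors to RNA polymerase II (RNAP2) at promoters. Its 33 human subunit genes were taken from the count table by gene symbol, as the full set of subunits with no threshold on a measured value, though earlier results of these data were known when the complex was chosen. All 33 were found among 61541 genes. The libraries were bulk RNA-seq of H9, a wild-type cutaneous T-cell lymphoma (CTCL) line, and comprised 3 treated with vehicle (DMSO) and 3 treated for 4 h with AZD4573, a selective inhibitor of CDK9. CDK9 is the kinase that releases paused RNAP2 into elongation, and the comparison asks which transcripts depend on it. H9 is a single line grown in culture, and the labels do not say whether the replicates were separate cultures, so that p-values measure the spread between these libraries, which may be technical.

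The complex is built from a head, a middle and a tail module held together by MED14, the scaffold subunit. The head and middle contact RNAP2 and the general transcription factors, and the tail receives most activators. A separable kinase module, formed by CDK8 or its paralog CDK19 with cyclin C (CCNC), MED12 or MED12L, and MED13 or MED13L, docks reversibly on the core and hinders its contact with RNAP2. MED26, a middle subunit, competes for this position and brings in elongation factors that contain P-TEFb, the complex of CDK9 with cyclin T. The head was taken as 7 subunits (MED6, MED8, MED11, MED17, MED18, MED20 and MED22), the middle as 9 (MED1, MED4, MED7, MED9, MED10, MED19, MED21, MED26 and MED31) and the tail as 9 (MED15, MED16, MED23, MED24, MED25, MED27, MED28, MED29 and MED30). The kinase module held 7 genes and the scaffold 1.

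Total counts ranged from 70367303 to 76571157 with DMSO and from 52101868 to 63795185 with AZD4573. Of 10 T-cell markers, 9 were above 1 CPM (read counts relative to the library total, scaled by edgeR's TMM factors) in every library, while CD2 was at most 0.166 CPM and CD4 between 3.61 and 7.35 CPM. The summed T-cell markers ranged from 1032 to 1071 CPM with DMSO and from 1273 to 1309 CPM with AZD4573. EPCAM (132 to 167 CPM) and CD79A (55.0 to 98.4 CPM), which are usually epithelial and B-cell markers, were present, whereas KRT19 and PAX5 were at 0 in at least 1 library. The summed B-cell list ranged from 61.0 to 67.0 CPM with DMSO and from 92.5 to 102.8 CPM with AZD4573, the epithelial list from 153.6 to 172.8 and from 136.6 to 141.6 CPM, the fibroblast list from 5.01 to 7.47 and from 3.62 to 4.36 CPM, and the myeloid list from 0.421 to 0.560 and from 0.629 to 1.09 CPM. The sums hide members that went the other way. CD79A went from a mean of 57.8 to 93.6 CPM, but CD79B from 5.66 to 3.46 CPM. Of 9 T-cell markers tested as described below, 7 were higher, whereas CD28 (5.85 to 4.35 CPM) and CD247 (214.3 to 198.3 CPM) were lower. Whether these differences bear on the Mediator transcripts was not tested. In bulk libraries, a lower share of cells of a type and less RNA per cell cannot be told apart.

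Transcripts of most Mediator subunits fell upon AZD4573 treatment. In edgeR's quasi-likelihood test, at a Benjamini-Hochberg adjusted p under 0.05 over all 17678 genes tested, 22 of the 33 were lower, against 37.4% of all genes. Another 6 were higher, against 37.3% of all genes, and 5 did not pass the test. With a fold change of at least 1.5 in addition, 14 were lower (23.7% of all genes) and 2 were higher (22.7% of all genes). Every AZD4573 library lay below every DMSO library for 22 members, against 38.7% of all genes, and above for 8, against 39.0%. The median log2 fold change of the members was -0.48, compared with 0.03 over all genes tested.

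All 7 head subunits were lower, with a median log2 fold change of -0.92, and 5 of them fell by at least 1.5-fold. In the middle module 7 subunits were lower, MED26 was higher and MED9 did not pass the test, with a median of -0.77. The tail had 4 lower, 2 higher and 3 that did not pass, with a median of -0.07. The kinase module had 3 lower, 3 higher and 1 that did not pass, with a median of 0.02. MED14 was lower, with a log2 fold change of -0.20. Over all genes tested, 37.4% were lower, 37.3% were higher and 23.7% fell by at least 1.5-fold. Calls in both directions, as in the tail and the kinase module, are thus also what all genes show. The medians are descriptions, and no test of the difference between modules was made.

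**Figure D1:**
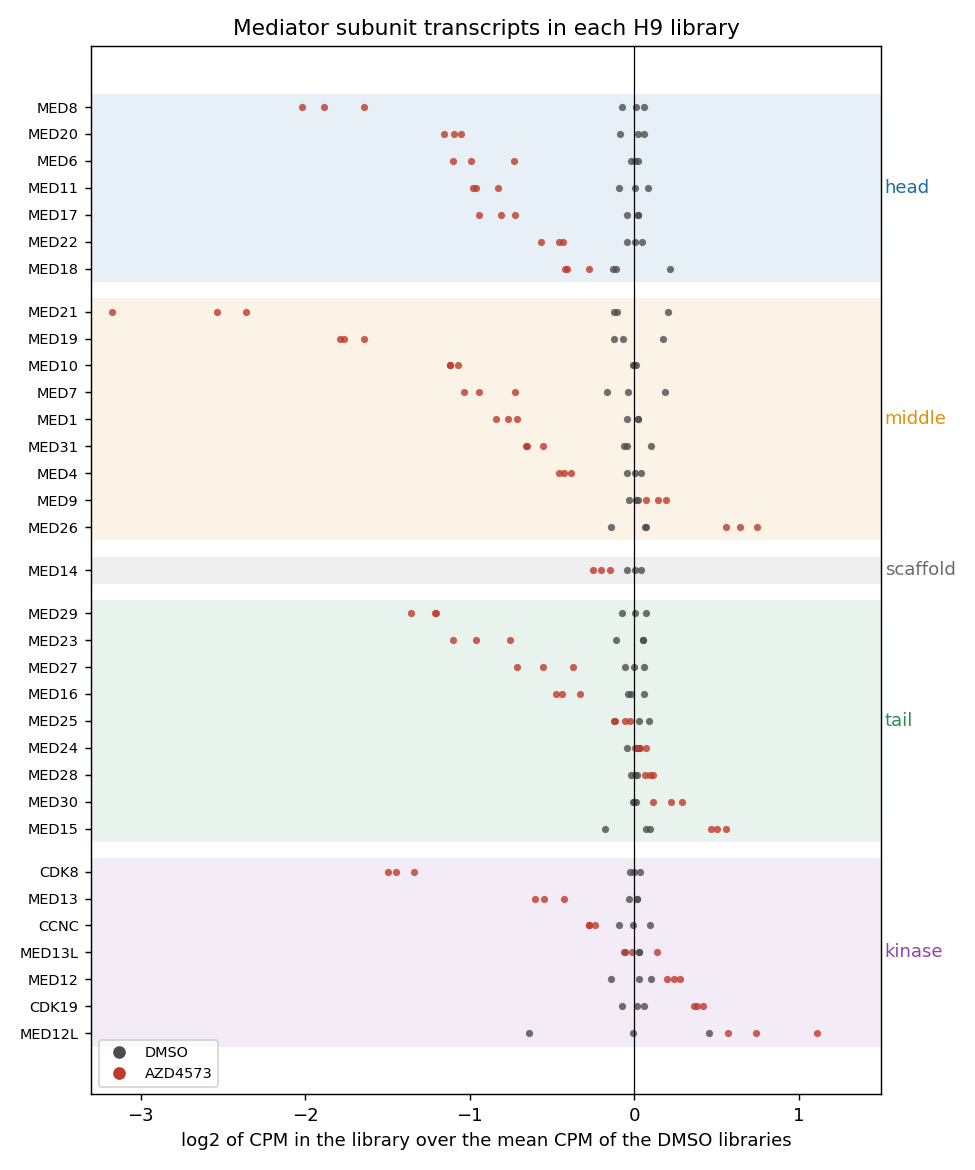
Each point is a library (grey, DMSO; red, AZD4573), plotted as the log2 of its CPM over the mean CPM of the 3 DMSO libraries, with the 33 subunits grouped by module and ordered by log2 fold change. All 7 head subunits lie to the left with AZD4573, whereas the tail and the kinase module spread to both sides, as all genes tested do. Under mitochondrial scaling of the libraries, MED12L alone keeps a positive fold change.

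The split into lower and higher subunits depends on the scaling. Transcripts of 13 mitochondrially encoded genes, made by a different polymerase, accounted for 3.04% to 3.22% of counts with DMSO and 4.67% to 4.98% with AZD4573. Scaled to these mRNAs, the median log2 fold change of all genes moved from 0.03 to -0.71, and the same edgeR test called 31 members lower and 0 higher, with 0 also at an unadjusted p under 0.05. Of all 17678 genes tested, 11878 were lower and 2144 higher with this scaling, so that most of the added lower calls go with a shift of all genes. With library size as the only scaling, the median of all genes was -0.08, with 23 members lower and 3 higher. Of all genes, 7347 were then lower and 5741 higher. Relative to the median of all genes, the head stood at -0.95, the middle at -0.80, the tail at -0.09, the kinase module at -0.00 and MED14 at -0.23, each the same to within 0.01 under the 3 scalings. In each of the 3 scalings, 24 members lay below the median of all genes. A change of scaling shifts every gene by about the same amount, so that both agreements follow by construction.

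**Figure D2:**
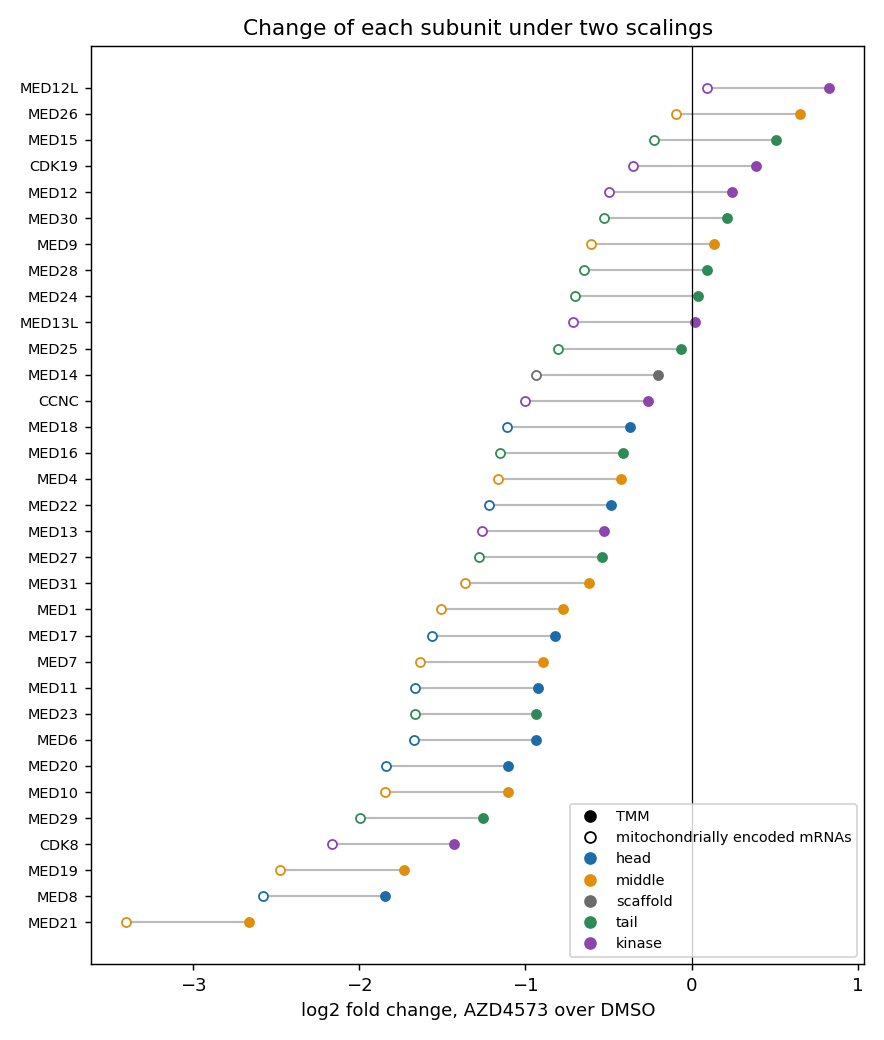
Each row is a subunit, with its log2 fold change under TMM scaling (filled) and under scaling to the 13 mitochondrially encoded mRNAs (open), coloured by module. The shift is about the same for every subunit, so that the order changes little while 9 subunits cross from positive to negative values.

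Ratios taken within a library do not depend on its scaling. Each subunit was therefore divided by the count of MED14, a comparison chosen after the fold changes were seen. Of the 32 other subunits, the ratio was lower in every AZD4573 library than in every DMSO library for 19, against 30.5% of all genes, and higher for 10, against 46.7%. The 19 comprised 6 head, 7 middle, 4 tail and 2 kinase subunits, and the 10 comprised 2 middle, 4 tail and 4 kinase subunits. The overlapping ones were MED18, MED25 and CCNC.

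Among the head subunits, which form the part of the core nearest to RNAP2, the largest fall was that of MED8 (ENSG00000159479, chromosome 1 of GRCh38 from 43383917 to 43389808). MED8 tethers the movable jaw of MED18 and MED20 to the rest of the head. Its transcripts were at 32.7, 29.8 and 31.6 CPM with DMSO and at 10.0, 8.47 and 7.75 CPM with AZD4573. No treated library came near the lowest control. The log2 fold change was -1.85 ± 0.0860 (SE, adjusted p = 5.0e-10), a 3.59-fold fall. MED20 (log2 fold change -1.10), MED6 (-0.94), MED11 (-0.92) and MED17 (-0.82), the central architectural subunit of the head, followed. MED22, the partner of MED11, fell by 0.48 and MED18 by 0.37 on the log2 scale. MED11 and MED20 share 36.3% and 25.3% of their exon bases with other genes, and the counting, at RSEM's default, did not use strand.

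The middle module held the largest fall of any member. MED21 (ENSG00000152944, chromosome 12 from 27022546 to 27066343) forms with MED7 the flexible hinge of the module. It was at 13.1, 10.6 and 10.5 CPM with DMSO and at 2.22, 1.96 and 1.26 CPM with AZD4573. The groups were far apart, and the log2 fold change was -2.66 ± 0.166 (SE, adjusted p = 6.8e-09), a 6.32-fold fall. MED7, its partner, fell by 0.89 from a low level of 5.08 CPM, and MED31, which binds MED7, fell by 0.62. For MED31, 1231 of 2107 exon bases are shared with TXNDC17 on the opposite strand. MED19, a small subunit at the contact between the core and RNAP2, went from 15.8, 12.9 and 13.3 CPM to 4.13, 4.47 and 4.05 CPM, a log2 fold change of -1.73. MED10 fell by 1.10 on the log2 scale and MED4 by 0.42.

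MED1 is the subunit that nuclear receptors bind and had the highest CPM of the members with DMSO. It was at 182.7, 190.9 and 191.2 CPM with DMSO and at 114.8, 110.5 and 105.0 CPM with AZD4573. The groups did not overlap, and the log2 fold change was -0.77 ± 0.0452 (SE, adjusted p = 3.6e-09), a 1.71-fold fall. MED26 (chromosome 19 from 16574907 to 16629062) went the other way, from 21.0, 21.0 and 18.2 CPM to 29.5, 31.3 and 33.6 CPM. Its log2 fold change was 0.65 ± 0.0725 (SE, adjusted p = 2.3e-06), which became -0.09 (adjusted p = 0.323) when scaled to the mitochondrial mRNAs. Its ratio to MED14 was 0.186, 0.175 and 0.156 with DMSO and 0.280, 0.309 and 0.344 with AZD4573. MED26 shares 2669 of 5328 exon bases with other annotated genes, among them unnamed protein-coding genes on its strand, and RSEM divides reads between overlapping genes by estimation. MED9 was at 0.14 (adjusted p = 0.0590) and is not called, though it was called higher with at least 10 counts in every library (0.17, adjusted p = 0.0194) and without AZD4573 replicate 1 (0.16, adjusted p = 0.0274), and was at -0.60 with mitochondrial scaling.

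MED14, which runs through the core and joins its modules, was at 112.8, 119.9 and 116.7 CPM with DMSO and at 105.3, 101.1 and 97.7 CPM with AZD4573. The groups were close but did not overlap, with a log2 fold change of -0.20 ± 0.0455 (SE, adjusted p = 0.0013).

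The tail, where many activators bind, moved in both directions, as all genes tested did. MED29 (chromosome 19 from 39391303 to 39400641) was at 74.5, 71.2 and 67.4 CPM with DMSO and at 30.6, 27.7 and 30.9 CPM with AZD4573. This was a 2.39-fold fall, with a log2 fold change of -1.26 ± 0.0588 (SE, adjusted p = 5.3e-10). MED23, a target of the Ras-ELK1 pathway, was at -0.93, MED27 at -0.54 and MED16 at -0.42, all lower at an adjusted p under 0.05. MED15 (chromosome 22 from 20495913 to 20587632), which binds SREBP and SMAD factors, went from 60.1, 71.5 and 72.5 CPM to 93.9, 100.2 and 96.5 CPM. Its log2 fold change was 0.51 ± 0.0655 (SE, adjusted p = 9.0e-06) and reversed to -0.23 with mitochondrial scaling, and 8 pseudogenes bear its name. MED30 rose by 0.21 on the log2 scale (adjusted p = 0.0046), which reversed to -0.53 with the same scaling and was 0.11 (adjusted p = 0.0996) with library size only. MED24, MED25 and MED28 had log2 fold changes of 0.04, -0.07 and 0.09 and did not pass the test. MED25 was called lower with library size only (-0.17, adjusted p = 0.0204) and without DMSO replicate 1 (-0.14, adjusted p = 0.0160), and MED28 was called higher with at least 10 counts in every library (0.13, adjusted p = 0.0191) and was at -0.65 with mitochondrial scaling. Of these, MED25 is the subunit that the viral activator VP16 binds, and MED24 had the highest level of all members per transcript length. MED28 shares 32.1% of its exon bases with FAM184B on the opposite strand, and 8 pseudogenes bear its name.

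The kinase module holds pairs of paralogs that replace each other in the complex, among them its kinases. CDK8 (chromosome 13 from 26254104 to 26420982) was at 29.2, 28.0 and 28.5 CPM with DMSO and at 11.3, 10.5 and 10.1 CPM with AZD4573. The log2 fold change was -1.43 ± 0.0651 (SE, adjusted p = 4.2e-10), a 2.69-fold fall. CDK19 (chromosome 6 from 110609978 to 110815958) was at 15.5, 15.05 and 14.2 CPM with DMSO and at 19.2, 19.9 and 19.4 CPM with AZD4573. Its log2 fold change was 0.39 ± 0.0640 (SE, adjusted p = 9.3e-05) and reversed to -0.35 with mitochondrial scaling. Neither gene's libraries overlapped between the groups.

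The share of CDK19 in the counts of both kinases, which no scaling can change, was 34.7%, 35.0% and 33.2% with DMSO and 62.9%, 65.6% and 65.7% with AZD4573. The mean rose from 34.3% ± 0.933 to 64.7% ± 1.59 (SD, n = 3; exact two-sided permutation test, p = 0.10, the smallest that 3 against 3 libraries allow). Divided by transcript length, CDK19 made up 19.99% with DMSO and 46.8% with AZD4573. CDK8 is the better represented of the paralogs in DMSO on this scale, and the levels of both were close with AZD4573, at 3.47 and 3.05 RPKM (CPM per kilobase of the canonical transcript). CDK8 has 2 named pseudogenes, and neither kinase gene shares an exon base with another gene.

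MED13, the subunit that links the kinase module to the core, was at 89.99, 93.3 and 93.4 CPM with DMSO and at 68.4, 63.1 and 60.6 CPM with AZD4573. Its log2 fold change was -0.53 ± 0.0516 (SE, adjusted p = 6.2e-07). MED13L was at 98.7, 104.3 and 104.5 CPM and at 112.6, 101.4 and 98.2 CPM, so that the groups overlapped (log2 fold change 0.02, adjusted p = 0.727). The share of MED13L in both rose from 52.6% ± 0.286 to 61.9% ± 0.275 (SD, n = 3; exact two-sided permutation test, p = 0.10). No library of one group reached the range of the other, which ran from 52.3% to 52.8% with DMSO and from 61.6% to 62.2% with AZD4573.

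MED12 activates the kinase through cyclin C. It was at 89.7, 100.6 and 106.0 CPM with DMSO and at 116.8, 119.7 and 113.3 CPM with AZD4573. The log2 fold change was 0.24 ± 0.0576 (SE, adjusted p = 0.0020), which was 0.13 (adjusted p = 0.0698) with library size only and reversed to -0.50 with mitochondrial scaling. MED12L had 18, 26 and 36 counts with DMSO and 27, 34 and 47 with AZD4573, which made up at most 0.675% of the counts of both paralogs. Its log2 fold change of 0.83 ± 0.346 (SE, adjusted p = 0.0441) rests on these few counts, and the adjusted p reached 0.168 when AZD4573 replicate 3 was left out. The share of MED12L was 0.355% ± 0.102 with DMSO and 0.541% ± 0.118 with AZD4573 (SD, n = 3; exact two-sided permutation test, p = 0.20, where 0.10 is the smallest possible). Its libraries overlapped between the groups, from 0.255% to 0.459% with DMSO and from 0.452% to 0.675% with AZD4573.

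CCNC, the cyclin that CDK8 and CDK19 share, was at 75.3, 70.0 and 66.1 CPM with DMSO and at 58.1, 58.2 and 59.6 CPM with AZD4573. It was lower, with a log2 fold change of -0.26 ± 0.0534 (SE, adjusted p = 5.1e-04). Relative to MED14, CCNC ranged from 0.566 to 0.667 with DMSO and from 0.552 to 0.610 with AZD4573, so that these ranges overlapped.

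**Figure D3:**
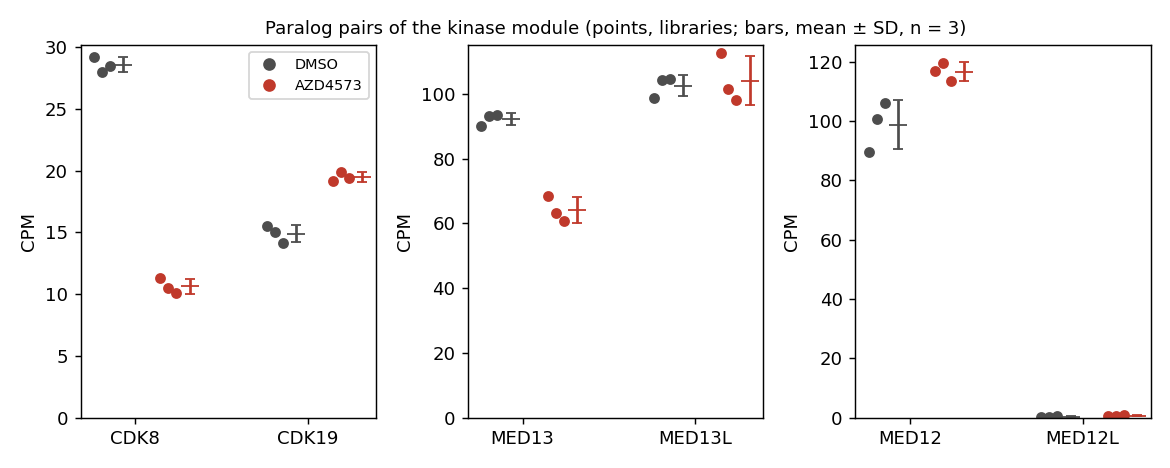
CPM of the kinase module paralogs in each library (points), with mean ± SD of 3 libraries beside them, for DMSO (grey) and AZD4573 (red). CDK8 lies below CDK19 in CPM with AZD4573 (10.6 against 19.5 on average) but not per transcript length (3.47 against 3.05 RPKM), the gap between MED13 and MED13L widens (64.1 against 104.1 CPM), and MED12L stays under 1 CPM in both groups.

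Levels per transcript length spanned a wide range. With DMSO, MED24 (42.7 ± 1.09 RPKM, SD, n = 3), MED25 (38.4 ± 2.93), CCNC (32.7 ± 2.14), MED10 (31.1 ± 0.193) and MED30 (29.9 ± 0.244) had the highest levels. CDK19 (2.33 ± 0.106 RPKM) and MED12L (0.0331 ± 0.0120 RPKM) had the lowest. Along this order, 14 of 32 neighbouring pairs were separated in all 3 DMSO libraries, and the other 18 overlapped. CCNC and MED10, for instance, did not differ beyond their spread. MED24 was above MED10 in both groups, at 43.7 against 14.5 RPKM with AZD4573. With AZD4573, MED30 (34.6 RPKM), MED15 (28.9 RPKM) and MED16 (19.9 RPKM) were among the subunits above MED10 that lay below it with DMSO. MED21 went from 4.27 to 0.680 RPKM.

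Summed over the members, RPKM ranged from 504.7 to 508.3 with DMSO and from 391.6 to 397.1 with AZD4573. The head made up 15.7% ± 0.417 of this sum with DMSO and 10.8% ± 0.404 with AZD4573 (SD, n = 3). The middle went from 22.5% ± 0.429 to 18.1% ± 0.208, the tail from 43.6% ± 0.869 to 50.8% ± 0.487 and the kinase module from 15.4% ± 0.190 to 17.1% ± 0.179. In each module, the libraries of the groups did not overlap. These shares do not depend on the scaling of the libraries, though they depend on the transcript length assumed for each gene. Because a share also depends on the other modules, a larger share does not by itself mean a higher level.

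**Figure D4:**
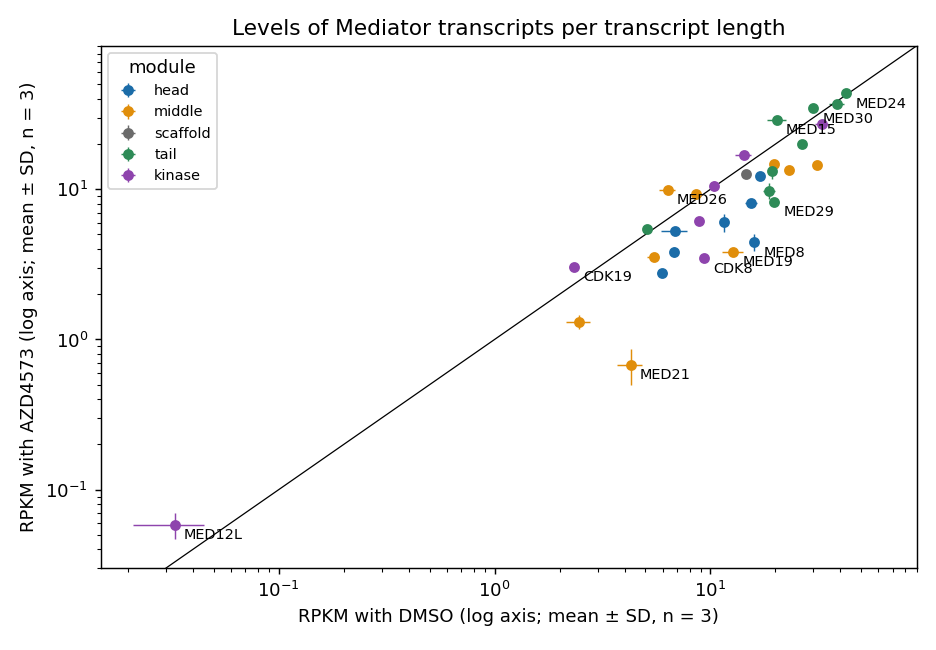
Mean RPKM of each subunit with DMSO and with AZD4573 on log axes, with SD bars over 3 libraries and a line of equal levels. MED21 (4.27 against 0.680 RPKM), MED8, MED19 and CDK8 lie below the line, MED15, MED26 and CDK19 above it under TMM scaling but with negative fold changes under mitochondrial scaling, and MED12L stands apart at the lowest level.

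The members also differ in gene structure, which played no part in their choice. They span from 2.18 kb (MED11) to 351.8 kb (MED12L). Across the 33 members, the log2 fold change had a Spearman correlation of 0.41 with gene span, 0.36 with the length of the canonical transcript and 0.28 with its number of exons. These are descriptions across genes measured in the same libraries, and genes are not independent replicates. All members are protein coding, and over the 13423 protein-coding genes tested the same correlations were -0.026, -0.093 and 0.083. Over all 17638 genes tested with a GENCODE entry they were -0.10, -0.15 and -0.065. The 4 members in the shortest quartile of span (up to 7.09 kb) were all lower, with a median of -1.01, where all genes of that quartile had a median of 0.24. In the longest quartile (from 61.9 kb), 4 of 8 members were lower and 3 higher, with a median of -0.09, where all genes had -0.04. CDK8 at 166.9 kb and MED27 at 226.9 kb are long genes that were lower.

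**Figure D5:**
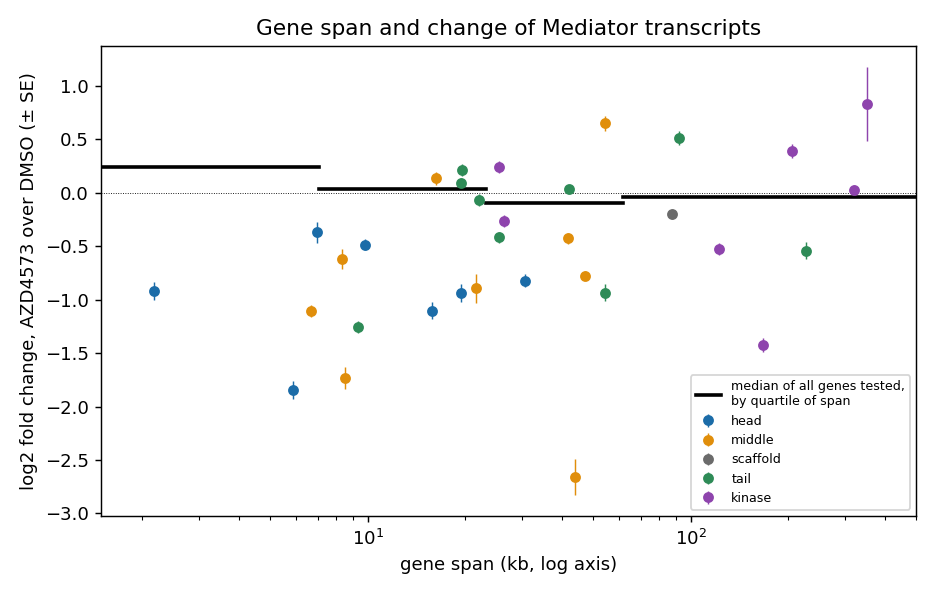
Log2 fold change of each subunit (± standard error, coloured by module) against the span of its gene on a log axis, with the median of all genes tested in each quartile of span as black lines. The median of the 4 shortest members lies below that of all genes in their quartile (-1.01 against 0.24), MED21 lies lowest of all at 43.8 kb, and members above 61.9 kb lie on both sides of it.

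Promoter windows from RefSeq (GRCh38.p14), from 250 bases before to 50 bases after an annotated start, were given for 25 of the 33 members. The 8 without one are MED6, MED8, MED13, MED14, MED21, MED22, MED28 and MED30. The windows of CDK8 and CDK19 are shown because these paralogs moved in opposite directions under TMM scaling, and those of MED19 and MED26 because they are middle subunits that did so (MED26 and CDK19 were at -0.09 and -0.35 with mitochondrial scaling). Capitals mark 6 motifs searched as exact letters on both strands, with overlapping matches counted. These are the GC box (GGGCGG), the CCAAT box (CCAAT), the TATA box (TATAAA), the GATA motif (AGATAA), the E-box (CACGTG) and the ETS motif (CCGGAAG). Sequences read 5′ to 3′ on the strand of the gene.
CDK8, chr13:26253879-26254178, plus strand: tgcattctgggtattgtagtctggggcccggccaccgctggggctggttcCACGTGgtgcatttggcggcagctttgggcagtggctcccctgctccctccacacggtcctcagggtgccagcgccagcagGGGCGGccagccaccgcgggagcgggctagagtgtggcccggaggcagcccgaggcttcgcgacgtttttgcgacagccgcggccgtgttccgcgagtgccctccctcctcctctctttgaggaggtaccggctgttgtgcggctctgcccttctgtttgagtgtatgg
CDK19, chr6:110815806-110816105, minus strand, the first of 3 listed windows: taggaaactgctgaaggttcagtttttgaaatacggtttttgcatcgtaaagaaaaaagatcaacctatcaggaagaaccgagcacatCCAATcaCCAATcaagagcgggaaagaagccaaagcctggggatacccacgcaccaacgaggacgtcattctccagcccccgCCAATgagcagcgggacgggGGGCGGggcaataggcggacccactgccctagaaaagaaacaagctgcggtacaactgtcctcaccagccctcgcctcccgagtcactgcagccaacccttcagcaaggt
MED19, chr11:57712166-57712465, minus strand: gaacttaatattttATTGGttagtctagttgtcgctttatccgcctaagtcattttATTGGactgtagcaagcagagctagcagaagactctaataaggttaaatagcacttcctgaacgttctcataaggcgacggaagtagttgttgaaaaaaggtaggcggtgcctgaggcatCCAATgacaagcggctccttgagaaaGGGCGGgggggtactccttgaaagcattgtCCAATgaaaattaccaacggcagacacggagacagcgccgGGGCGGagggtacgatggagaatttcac
MED26, chr19:16628155-16628454, minus strand: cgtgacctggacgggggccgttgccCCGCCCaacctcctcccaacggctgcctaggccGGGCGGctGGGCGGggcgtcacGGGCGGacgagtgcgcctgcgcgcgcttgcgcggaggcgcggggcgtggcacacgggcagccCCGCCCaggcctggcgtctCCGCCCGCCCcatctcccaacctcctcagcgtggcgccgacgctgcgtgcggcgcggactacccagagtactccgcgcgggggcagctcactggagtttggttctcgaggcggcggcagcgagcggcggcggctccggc

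The CDK8 window holds 1 GC box and 1 E-box, while that of CDK19 holds 1 GC box and 3 CCAAT boxes. The MED19 window holds 4 CCAAT boxes and 2 GC boxes at a GC content of 47.0%. The MED26 window holds 7 GC boxes at 77.3% GC. Each member is represented by its first listed window, whereas figures over all windows include several windows for some genes. A GC box was found in 15 of the 25 members (60.0%) and in 45.0% of 35116 promoter windows. It was present in 8 of 16 lower members, 4 of 5 higher ones and 3 of 4 that did not pass the test. A CCAAT box was found in 10 of 25 members and 34.6% of all windows, and an ETS motif in 7 of 25 members, of which 6 were lower, and 10.3% of all windows. The TATA box (2 members, 11.5% of all windows), the GATA motif (1 member, 10.3%) and the E-box (2 members, 7.26%) were rare. The median GC content was 56.3% in lower members, 67.0% in higher ones, 59.3% in those that did not pass and 58.7% over all windows. A match describes the letters of a window and not a bound site.

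Genes that work with Mediator were listed by role. The 12 core subunits of RNAP2, the enzyme that Mediator positions, had 7 lower and 4 higher, with a median log2 fold change of -0.26. POLR2A, its largest subunit, was at 321 ± 31.9 CPM with DMSO and 127 ± 3.41 CPM with AZD4573 (SD, n = 3), or -1.34 on the log2 scale, and POLR2G was at 0.36 (-0.38 with mitochondrial scaling). Of 12 coactivators linked to Mediator, 11 could be tested, and 6 were lower and 5 higher, with a median of -0.49. CREBBP, a histone acetyltransferase, was at -1.22, and NCOA3, a nuclear receptor coactivator, at 0.76 (0.02 with mitochondrial scaling). The 10 genes of cohesin, its loader and regulators, which hold enhancers and promoters together, had 7 lower and 3 higher, with a median of -0.45. They ranged from MAU2, part of the loader, at -0.98 to RAD21, a ring subunit, at 0.33 (-0.41 with mitochondrial scaling).

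Of the elongation factors and scaffolds that MED26 can recruit, 9 of 10 could be tested and all 9 were lower, with a median of -0.30. The largest fall was that of EAF2, a partner of ELL, at -1.58, from 3.11 to 1.04 CPM, while MED26 itself was higher at 0.65 (-0.09 with mitochondrial scaling). The shares of all genes called lower (37.4%) and higher (37.3%) apply to these lists as well, and no list was tested as a set.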

How the data were processed

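Bulk RNA-seq of H9 cells covered 3 DMSO and 3 AZD4573 libraries, grouped by their labels. According to the methods and the submitters' processing notes, the authors trimmed reads with Cutadapt 2.3, aligned them to GRCh38 with STAR 2.7.8a and deposited expected counts per gene estimated by RSEM 1.3.3, with default parameters, which ignore strand. The deposited values are all whole, so no rounding was needed, and are not normalized. Library preparation is given as poly(A) selection in the labels and as rRNA depletion with a directional kit in the methods. The deposited table held 61541 genes and 5 reporter rows with 0 counts.

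Genes passing edgeR's filter (minimum count 10; 17678 genes) were normalized by TMM and compared with the quasi-likelihood test of edgeR 4.0.16 in R 4.3.3, with Benjamini-Hochberg adjustment over all genes and no replicate block. Alternatives were RLE factors, library size only, scaling to 13 mitochondrial mRNAs, other filters, each library left out, DESeq2 1.42.0, a replicate block and a stricter fold threshold of 2. DESeq2 was the authors' tool. CPM were scaled by TMM. RPKM used canonical transcripts of GENCODE release 44, which gave positions for all 33 members. All members are accounted for. Values per library are given for MED1, MED14, CCNC, the paralog pairs and the largest called fall and rise of each module, and for each context list its largest called fall and rise are named. Per-library values of MED19 and the ratio to MED14 were added after values were seen. The members and lists were chosen with earlier results of these data known. The procedure was also run on simulated counts in which a small share of genes changed, equally in both directions. These data differ from that setting, so that the simulation does not test the scaling.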

Additional observations from a re-analysis of the deposited data

How the results depend on the processing

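Of 429 log2 fold changes of members under alternatives, 397 kept their direction and side of the threshold, 16 reversed, 10 were weaker and 6 stronger, and 22 members kept theirs in every alternative. The share of mitochondrial mRNAs was larger with AZD4573, so that scaling to them shifts every gene down by about the same amount. With this scaling, the log2 fold change reversed for MED9 (-0.60), MED12 (-0.50), MED13L (-0.71), MED15 (-0.23), MED24 (-0.70), MED26 (-0.093), MED28 (-0.65), MED30 (-0.53) and CDK19 (-0.35). The counts became 0 higher members with or without the 1.5-fold threshold and 27 lower ones with it, and the module medians -1.66 (head), -1.51 (middle), -0.80 (tail) and -0.71 (kinase). With library size only, MED13L (-0.082), MED24 (-0.070) and MED28 (-0.014) reversed, 3 members were higher and 0 with the 1.5-fold threshold, and the module medians were -1.03, -0.88, -0.17 and -0.082. Without a low-count filter, MED13L (-0.020) and MED24 (-0.0064) reversed, the tail median was -0.11 and the kinase median -0.020. With at least 10 counts in every library these medians were -0.029 and 0.059. The cause of these moves was not tested.

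With the fold threshold raised to 2, stricter by construction, 7 members were lower and 0 higher. The higher members at 1.5-fold numbered 1 without a filter and 1 with DESeq2, where MED12L, with few counts, lost its call (adjusted p = 0.0675). With MED27 to MED30 counted as head and MED14 as middle, the head median was -0.82 and the middle median -0.70. Not all head subunits were then lower, since MED30 was higher (0.21) and MED28 (0.09) did not pass the test. Per transcript length, the CDK19 share rose by 26.8 percentage points in place of 30.5.

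With each library left out in turn, the medians ranged from -0.97 to -0.86 (head), -0.81 to -0.75 (middle), -0.14 to -0.032 (tail) and -0.042 to 0.057 (kinase), where MED13L, the middle value of its module, reversed to -0.016 without DMSO replicate 1 and to -0.042 without AZD4573 replicate 1. Higher members ranged from 5 to 7, and from 1 to 2 at 1.5-fold, where MED12L lost its call without DMSO replicate 1 or 2 or AZD4573 replicate 2 or 3, and MED26 was at 0.57, under 1.5-fold, without DMSO replicate 3. Lower members ranged from 22 to 23. The ratios to MED14 had 19 to 20 lower and 10 to 11 higher members, and 18 and 12 with the sum of all members in place of MED14, alternatives chosen after seeing the data.

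Deviations of same-numbered libraries from their groups correlated weakly (r of -0.0208, 0.0417 and 0.0316). For libraries of different numbers, r ranged from -0.0551 to 0.0199. With 3 libraries per group, these values cannot show whether the numbers pair the libraries. In the fit with a replicate block, 22 members were lower and 6 higher, as without it. A count of 0 allows up to 0.0576 CPM in the smallest library, and counts of PCR copies are not told apart, and MED12L, with at most 47 counts, is the member that depth limits most.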
